A study of Danio rerio with 2 samples.

Results

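The signalling kinase genes mapk14a, mapk8a and pdpk1b are 3 of the 11001 Refseq entries in a table of intron and gene levels from whole zebrafish larvae. They were taken by their Refseq IDs (NM_131722, NM_001110389 and NM_205699), which hold 25 of the 55660 introns listed. The genes had been picked because introns or gene values of theirs differed between the libraries, so all differences between the libraries are given here as descriptions, without a test. One library came from a pool of about 60 homozygous wildtype larvae and 1 from a pool of about 60 larvae homozygous for clbns841 (caliban). Both pools were of larvae aged 108 hours post-fertilization, grown at 28.5 °C, with 0.003% 1-phenyl-2-thiourea from 24 hours to block pigment. The series concerns a zebrafish mutant deficient in splicing of U12-type introns. With 1 library per genotype no value has a replicate error, and differences between the pools cannot be told apart from differences between the genotypes.

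Most introns are removed by the major spliceosome, and a rare class, the U12-type introns, by a separate minor spliceosome. An intron that is not removed stays in the poly(A) RNA and can be read there. Genes of MAP kinases, human MAPK14 among them, are known to hold U12-type introns. The gene mapk14a codes for a p38 kinase and mapk8a for a c-Jun N-terminal kinase (JNK). Both are stress-activated MAP kinases, which MAP kinase kinases switch on and dual-specificity phosphatases switch off. The gene pdpk1b codes for a form of PDK1, the kinase that phosphorylates AKT, SGK and S6 kinases downstream of insulin and PI3 kinase. The table has no column for the intron class, so which of the introns below are of the U12 type is not stated here.

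The libraries held 28309779 reads for wildtype and 25718058 for the mutant, and listed introns took 6.97% and 7.06% of them. From background knowledge and not from the labels, caliban is a mutant of rnpc3, the gene of a minor spliceosome protein. Its gene value ratio, mutant over wildtype, was 0.440 (95% counting interval 0.349 to 0.551). Markers of muscle, nerve, liver, intestine, skin and blood were listed in both libraries, as whole larvae should show. Exocrine pancreas markers (13 of 16 listed) reached a summed gene value of 10998 for wildtype and 3553 for the mutant, with 12 of the 13 at least 2-fold lower. Lens markers (10 of 13 listed) summed to 1345 and 612.6, with 10 of 10 lower. Summed intestine markers had a ratio of 0.813, with 5 of the 6 listed below 1. Summed blood markers had a ratio of 1.34, but 3 of the 4 listed were below 1. That sum was mostly hbae3, with 610 of 638 for wildtype and 836 of 857 for the mutant. Summed markers of muscle, nerve, liver and skin lay between 0.899 and 1.04. In such bulk samples fewer cells of a type and less RNA per cell cannot be told apart. The part of these tissue differences in the kinase values was not tested.

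In gene value the kinases went different ways. Gene values are reads scaled by the length of the gene and the size of the library, so that they can be compared between genes. For mapk14a the wildtype library gave 11.8 and the mutant library 15.7 (743 and 901 reads), a ratio of 1.33 (1.21 to 1.47, again the 95% counting interval). The value of mapk8a was 3.90 and 8.41 (178 and 349 reads), a ratio of 2.16 (1.80 to 2.60). That of pdpk1b was 24.8 and 16.3 (421 and 251 reads), a ratio of 0.656 (0.559 to 0.769). So mapk14a and mapk8a were higher and pdpk1b lower in the mutant library. The value of pdpk1b was the highest of the 3 in wildtype, while in the mutant library it was close to that of mapk14a (16.3 and 15.7). Over 10175 genes with at least 20 reads in both libraries together, 0.855% were at least 2-fold higher, as mapk8a was, and 3.43% at least 1.5-fold lower, as pdpk1b was. None of the 3 kinases was 2-fold lower, where 1.11% of all genes were. The genes were chosen on this contrast, so these shares only place them. The gene reads are the smallest whole numbers that give the deposited values, and they can be too low by a common factor. For pdpk1b they came with a length of only 600 bp. The distances between its listed introns, of 43 to 230 bp each, add up to more than that, though unlisted introns could lie within them. Its 421 and 251 reads are then probably too low, and its counting interval too wide.

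**Figure D1:**
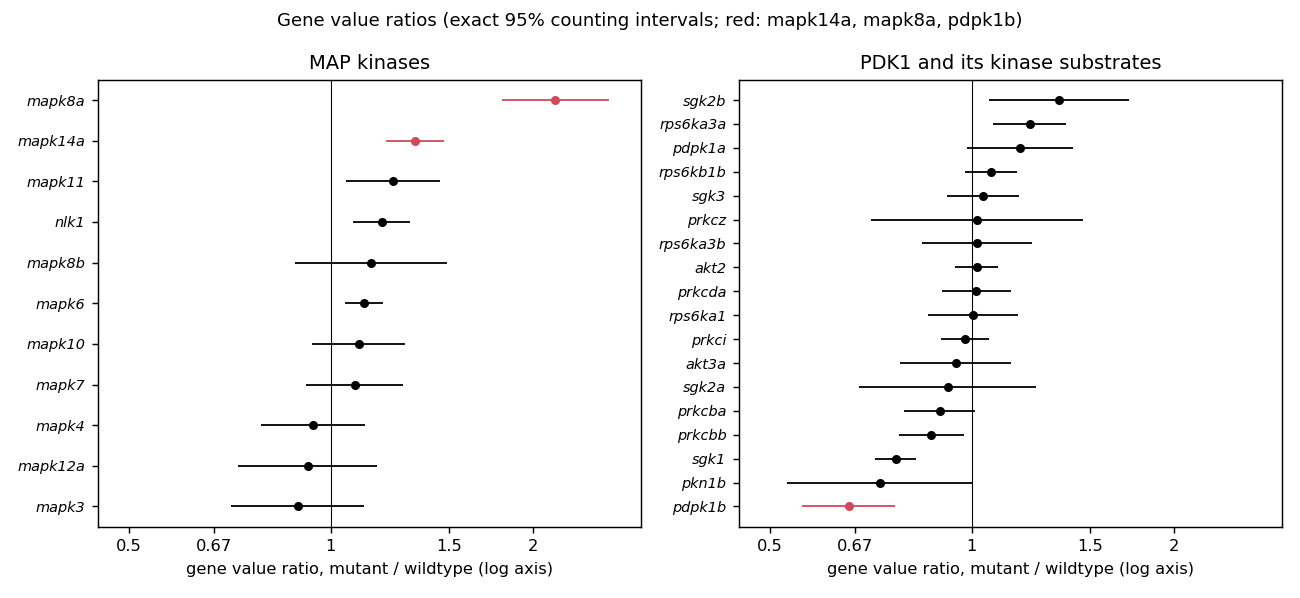
Gene value ratio, mutant over wildtype (horizontal log axis), of MAP kinase genes and genes of the PDK1 list with at least 20 reads, as points with exact 95% counting intervals. Red points are mapk8a at 2.16, mapk14a at 1.33 and pdpk1b at 0.656, which lie at the ends of their lists.

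Retention was read as the retention coefficient, the intron's level divided by the gene value, so that a coefficient of 1 stands for an intron read as densely as the exons. Introns are numbered below among the listed ones, from the 5′ end of the gene. Listed introns all hold 1 read or more in each library, and introns of the gene that are not listed have no number here. All coordinates are on Zv9, counted from 1. The retention ratio is the mutant coefficient over the wildtype one. Its interval covers counting error of the intronic reads only, and amplified reads are not independent molecules. Whether reads were counted by strand is not stated in the labels or headers, so reads of retained introns and of other transcripts over the same bases cannot be told apart. No listed intron of another Refseq ID lies within the stretches spanned by the listed introns of the 3 genes.

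Among the 25 introns of the kinases, 12 had a retention ratio of 2 or more, where 18.2% of all 53767 introns with a gene value did, and 3 were lower by 2-fold or more, where 15.9% were. At 4-fold, 6 were higher and 0 lower, where 5.21% and 4.14% of all those introns were. The kinases were chosen on these ratios, and nothing is read from the shares. Many of these introns held few reads. In 11 introns the libraries together held at least 20 reads, and just 2 of the 11, the last listed introns of mapk8a and pdpk1b, had that many in wildtype alone. The others reached 20 reads through the mutant library or both, so a count over the 11 would favour higher mutant values.

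mapk14a had 4 listed introns on chromosome 8 (plus strand), and the last 2 of them carried nearly all the listed intronic reads of the mutant library. Intron 4 (24703018 to 24708627, 5610 bp) had 18 reads in wildtype and 208 in the mutant library. Its coefficient was 0.0120 (0.0071 to 0.0189) and 0.114 (0.0993 to 0.131), a ratio of 9.53 (5.88 to 16.4). Intron 3 (24701167 to 24702937, 1771 bp) had 16 and 92 reads. Its coefficient was 0.0273 (0.0156 to 0.0443) and 0.129 (0.104 to 0.159), a ratio of 4.74 (2.77 to 8.64). The counting intervals of the libraries did not overlap in either intron, in a gene that was chosen on this contrast. Only 80 bp lie between introns 3 and 4, so that the pair encloses a short exonic stretch. Intron 1 (5227 bp) had 9 and 6 reads and intron 2 (9688 bp) 7 and 12, with ratios of 0.550 (0.161 to 1.73) and 1.41 (0.513 to 4.24). Together these upstream introns had 16 reads in wildtype and 18 in the mutant library, a ratio of 0.928 (0.447 to 1.94). So among the listed introns the last 2 were higher without a like difference in the first 2. Summed over the gene, intronic reads went from 6.73 to 35.3 per 100 gene reads. Of the 4199 genes with at least 2 introns of 20 reads, 5.86% had 1 or more introns with a ratio of 4 or above and 0.762% had 2 or more, and mapk14a and pdpk1b are among the latter.

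mapk8a had 8 listed introns on chromosome 13 (minus strand), and a single one stood out. Intron 4 (31382021 to 31383804, 1784 bp) had 13 reads in wildtype and 100 in the mutant library. Its coefficient was 0.0661 (0.0352 to 0.113) and 0.259 (0.211 to 0.315), a ratio of 3.92 (2.19 to 7.62). The gene value itself was higher in the mutant library, and scaled by the library total in place of the gene the same reads gave a ratio of 8.47. Intron 4 held 23.2% of the gene's listed intronic reads in wildtype and 64.1% in the mutant library. Intron 8, the last listed (31371985 to 31373855), had 24 and 26 reads and a ratio of 0.553 (0.305 to 1.01), or 1.19 when scaled by the library total. Introns 1 and 2 are 94 and 95 bp long and had 1 and 4 reads, and 1 and 2 reads. Their ratios of 2.04 (0.202 to 100.5) and 1.02 (0.0531 to 60.2) say little at this depth. Intron 3 had 8 and 6 reads and a ratio of 0.383 (0.109 to 1.26). Introns 5, 6 and 7 had 2 and 5, 5 and 10, and 2 and 3 reads, with ratios between 0.765 and 1.28. Without intron 4, the other 7 introns summed to 43 and 56 reads, a ratio of 0.664 (0.438 to 1.01). That ratio is relative to the gene value, which itself had a ratio of 2.16. The intronic reads themselves were not fewer in the mutant library.

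pdpk1b had 13 listed introns on chromosome 24 (minus strand), and its ratios ran from the highest among all introns with at least 20 reads to well below 1. Intron 4 (38832437 to 38832842, 406 bp) had 1 read in wildtype and 139 in the mutant library. Its coefficient was 0.0035 (8.9e-05 to 0.0196) and 0.818 (0.688 to 0.966), so that in the mutant library this short intron was read nearly as densely as the exons. The ratio of 233 has an interval of 41.2 to 9274, since it rests on 1 wildtype read. It ranked 1 among 20223 introns with at least 20 reads. In wildtype 5.08% of those introns had a lower coefficient than this one, and in the mutant library 97.2%.

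The introns on both sides were higher as well. Intron 5 (38829133 to 38832291, 3159 bp) had 11 and 117 reads and a coefficient of 0.0082 (0.0041 to 0.0147) and 0.146 (0.121 to 0.175), a ratio of 17.8 (9.61 to 36.7). Intron 3 (38832981 to 38834987) had 11 and 26 reads. Its coefficient was 0.0197 (0.0098 to 0.0352) and 0.0780 (0.0509 to 0.114), a ratio of 3.96 (1.89 to 8.89). The level of intron 3 is scaled by the 797 of its 2007 bp that are unique. Over the full length its coefficients were 0.0078 and 0.0310, with the same ratio. Introns 3 and 4 lie 138 bp apart and introns 4 and 5 lie 145 bp apart. Introns 3 to 5 together had 23 reads in wildtype and 282 in the mutant library, which was 13.1% and 74.4% of the gene's listed intronic reads.

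Outside introns 3 to 5 each intron up to intron 12 held at most 20 reads in either library, and the ratios of introns 10 to 13 were below 1. Intron 1 had 12 and 20 reads and intron 2, of 106 bp, 16 and 20, with ratios of 2.80 (1.302 to 6.27) and 2.10 (1.03 to 4.33). Scaled by the library total these were 1.83 and 1.38. Both introns thus had more mutant reads, but they passed 2-fold only with the lower gene value of the mutant. Introns 6 to 9 summed to 16 and 26 reads. Among them intron 6 had 8 and 6 reads and a ratio of 1.26 (0.360 to 4.13), and intron 9 had 6 and 10 reads and a ratio of 2.80 (0.921 to 9.36). Introns 7 and 8 had 1 wildtype read each and 6 and 4 mutant reads, with ratios of 10.1 (1.22 to 463) and 6.71 (0.664 to 330). The counting intervals of introns 6, 8 and 9 include 1.

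Intron 13, the last listed (38816458 to 38818499), had 68 reads in wildtype and 15 in the mutant library. Its coefficient was 0.0560 (0.0435 to 0.0709) and 0.0207 (0.0116 to 0.0342), a ratio of 0.370 (0.196 to 0.654). Intron 12 had 10 and 2 reads and a ratio of 0.335 (0.0357 to 1.57), intron 11 had 19 and 8 and a ratio of 0.706 (0.268 to 1.69), and intron 10 had 11 and 6 and a ratio of 0.915 (0.278 to 2.70). Introns 10 to 13 together held 108 reads in wildtype, 61.7% of the gene's listed intronic reads, and 31 in the mutant library, 8.18%. Their summed ratio was 0.481 (0.312 to 0.724). The stretches were set after the values were seen. Genes with both an intron at least 4-fold higher and an intron at least 2-fold lower, as in pdpk1b, made up 1.33% of the 4199 genes.

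**Figure D2:**
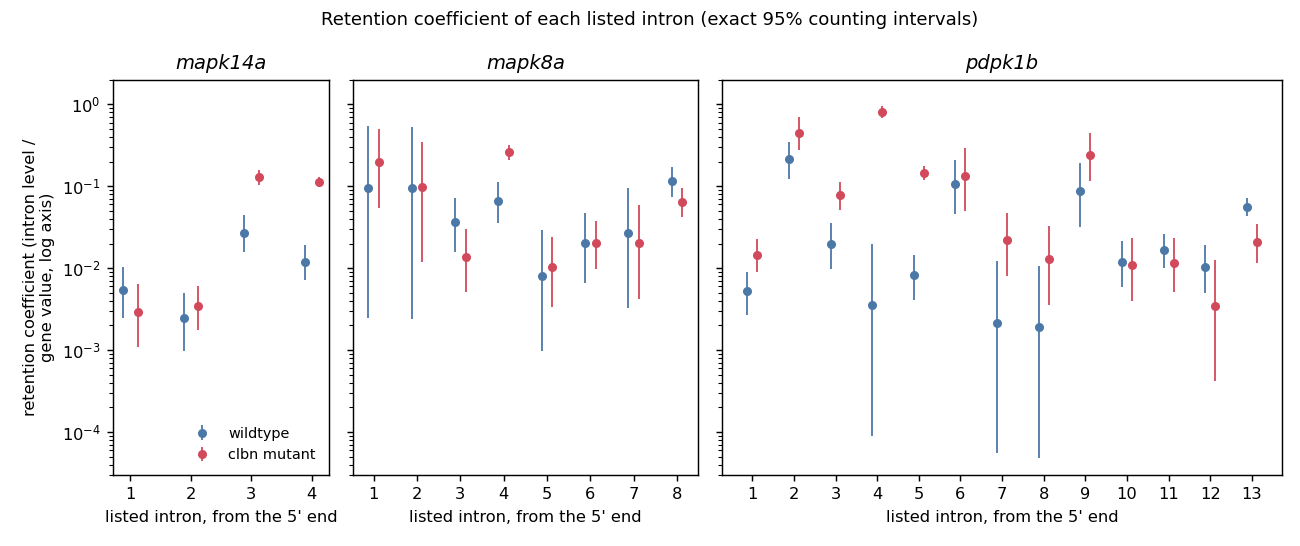
Retention coefficient (vertical log axis) of each listed intron from the 5′ end of mapk14a, mapk8a and pdpk1b, in wildtype (blue) and the mutant library (red), as points with exact 95% counting intervals. The mutant points lie higher at introns 3 and 4 of mapk14a, intron 4 of mapk8a and introns 3 to 5 of pdpk1b. Intron 4 of pdpk1b reaches 0.818 in the mutant library, while intron 13 is lower there. The genes were chosen on this contrast.

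**Figure D3:**
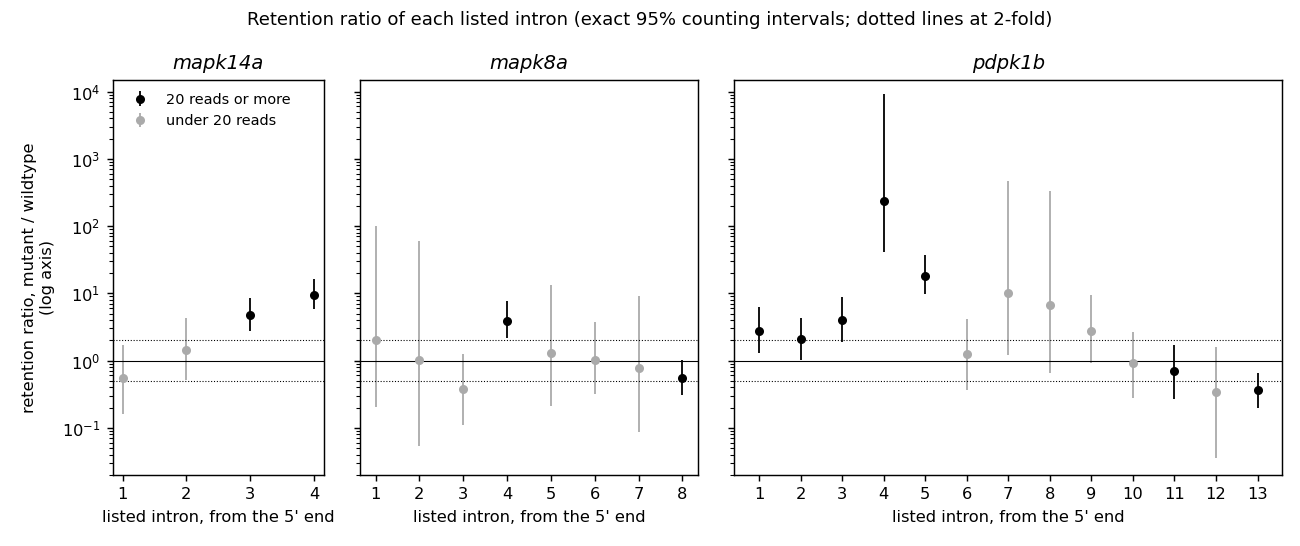
Retention ratio, mutant over wildtype (vertical log axis), of the same introns, with exact 95% counting intervals, in black where both libraries together held at least 20 reads and in grey elsewhere. In pdpk1b the ratios peak at 233 in intron 4 and lie below 1 from intron 10 to intron 13.

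In wildtype alone the coefficients ran from 0.0024 to 0.0273 in mapk14a, from 0.0081 to 0.117 in mapk8a and from 0.0019 to 0.215 in pdpk1b. Ordered by level, neighbours mostly had overlapping counting intervals, which the sorting itself favours. They did not overlap in 1 of 12 pairs in pdpk1b, between intron 13 (0.0560) and intron 3 (0.0197). They overlapped in all 3 pairs of mapk14a and all 7 of mapk8a. Over its full length intron 3 of pdpk1b was at 0.0078, so its place in this order depends on the length used. Introns 3 and 4 of mapk14a took places 1 and 2 of 4 in wildtype, and the intervals of both lay clear of that of intron 2 (0.00098 to 0.0050). Intron 4 of mapk8a took place 4 of 8 and intron 4 of pdpk1b place 11 of 13. In pdpk1b the top of the wildtype order was held by the 3 short introns, 2, 6 and 9, of 98 to 106 bp, with 0.215, 0.108 and 0.0873. Among all introns with at least 20 reads, those of up to 150 bp had a median wildtype coefficient of 0.288 and longer ones 0.0252.

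The second PDK1 gene of the fish, pdpk1a, shares part of the intron layout and part of the pattern. Its gene values were 3.57 for wildtype and 4.21 for the mutant, a ratio of 1.18 (0.985 to 1.41), against 0.656 for pdpk1b. From intron 4 of pdpk1b and intron 2 of pdpk1a onward, the distances between consecutive listed introns were the same in both genes for 6 steps, at 145, 98, 76, 69, 97 and 174 bp. Before this run the distances differed, at 138 bp in pdpk1b and 333 bp in pdpk1a, and after it, at 230 and 197 bp. This match was looked for after the values were seen. Matched in this way, intron 5 of pdpk1b, with its ratio of 17.8, lines up with intron 3 of pdpk1a, which had 3 and 35 reads and a ratio of 10.9 (3.43 to 55.4, chromosome 3, 45330994 to 45333377, 2384 bp). Both paralogs thus had more mutant reads at this pair, which was matched by spacing alone, without sequence. Intron 4 of pdpk1b, with its 1 and 139 reads, lines up with intron 2 of pdpk1a, of 111 bp, which had 4 and 7 reads and a ratio of 1.63 (0.415 to 7.61). The intervals of this matched pair, 41.2 to 9274 and 0.415 to 7.61, cover counting error only. Since pdpk1b was chosen on this contrast, whether the paralogs differ here was not tested. In the remaining matched pairs no intron held more than 12 reads in a library. The pdpk1b and pdpk1a ratios were 1.26 and 1.40 at the pair 6 / 4, and 10.1 and 1.24 at 7 / 5. They were 6.71 and 0.187 at 8 / 6, 2.80 and 0.778 at 9 / 7, and 0.915 and 3.73 at 10 / 8.

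**Figure D4:**
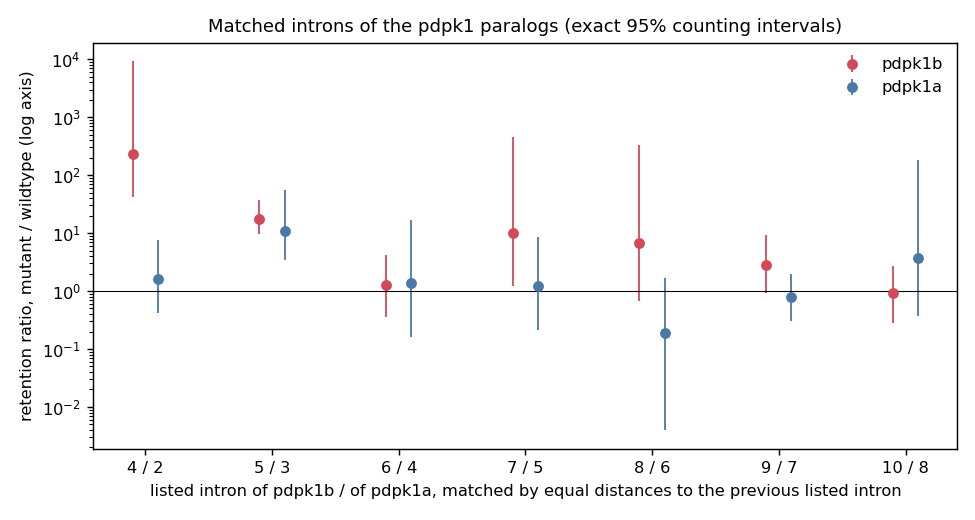
Retention ratio, mutant over wildtype (vertical log axis), of matched introns of pdpk1b (red) and pdpk1a (blue), with exact 95% counting intervals. Pairs were matched by equal distances between consecutive listed introns, starting from the pair 4 / 2, whose own distances to the previous intron are unequal. Both genes are high at the pair 5 / 3, with 17.8 and 10.9, and the pair 4 / 2 has 233 and 1.63.

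Some of the other kinases of the MAP kinase family held an intron with a higher retention ratio. The measured ones differed less than 1.5-fold in gene value, as most of all genes did. Of 16 further family members looked for, 10 were measured, and 0 of them were 1.5-fold higher or lower in gene value, where 4.45% and 3.43% of all genes were. The highest ratio was that of mapk11, a p38 kinase, at 1.24 (1.05 to 1.46). Beside mapk8a, the JNK genes mapk8b and mapk10, named here as its relatives after their values were seen, had gene value ratios of 1.15 (0.885 to 1.49) and 1.101 (0.938 to 1.29).

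Of 35 introns with at least 20 reads in these 10 genes, 7 were at least 2-fold higher in retention ratio and 2 lower, where 8.64% and 7.08% of all such introns were. At 4-fold there were 3 higher, against 1.72% of all introns. One is intron 4 of nlk1, which codes for a Nemo-like kinase, with 29 and 313 reads and a ratio of 9.98 (6.81 to 15.1, chromosome 3, 21173007 to 21176424). Another, in mapk10, had 33 and 144 reads, a ratio of 4.36 (2.97 to 6.58, chromosome 21, 8615292 to 8628154). In both genes a single intron with 20 reads passed 4-fold. Just under it, and named after their values were seen, were an intron of the p38 gene mapk12a with 9 and 30 reads and a ratio of 3.96 (1.84 to 9.49), and one of mapk8b with 9 and 34 reads and a ratio of 3.63 (1.70 to 8.59).

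Upstream and downstream of these kinases most measured genes differed less than 1.5-fold in gene value, as most of all genes did. Many list genes were not measured. Of the MAP kinase kinases 6 of 9 were measured with at least 20 gene reads, at ratios of 0.901 (map2k4b) to 1.16 (map2k2b). Another, map2k4a, had gene values of 7.85 and 7.20, a ratio of 0.917. It was not counted because the smallest whole solution gave it 6 and 5 reads, which can be too low by a common factor. Of the MAP3 kinases and their partners 4 of 22 were measured, from 0.886 (map3k5) to 1.31 (tab3, a partner of the kinase TAK1). These lists held 10 and 14 introns with at least 20 reads, some of map2k4a among them. Of these 0 were 4-fold higher or lower, where 1.72% and 0.737% of all such introns were. The scaffold list had 0 of 6 members measured. Of 15 measured substrates of p38 and JNK, 1 was at least 1.5-fold lower (6.67%), where 3.43% of all genes were. It was the kinase gene mapkapk2b, with values of 1.92 and 1.19 (69 and 39 reads), a ratio of 0.622 (0.409 to 0.935). Among 10 measured phosphatases 1 was at least 1.5-fold higher (10%), where 4.45% of all genes were. This gene, dusp22b, was 1.67-fold higher (1.08 to 2.60) on 37 and 56 reads. Of the 13 phosphatase introns with at least 20 reads, 1 was at least 4-fold higher and 1 lower, where 1.72% and 0.737% of all such introns were. The higher one, in dusp2, had 4 and 16 reads, a ratio of 4.92 (1.59 to 20.2). The lower one, in dusp5, had 18 and 2 reads, a ratio of 0.102 (0.0114 to 0.425).

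Around PDK1, 12 of 18 genes from the insulin and IGF receptors to PI3 kinase were measured, and 1 was at least 1.5-fold higher and 0 lower, where 4.45% and 3.43% of all genes were. Of their 36 introns with at least 20 reads, 7 were at least 2-fold higher and 2 lower, where 8.64% and 7.08% of all such introns were. At 4-fold, 3 introns in 2 genes were higher (8.33%) and 1 was lower, where 1.72% and 0.737% of all introns were. The lower one, in the insulin receptor gene insrb, had 17 and 3 reads, a ratio of 0.206 (0.0387 to 0.713).

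Of the PDK1 list 17 further members were measured, with gene value ratios of 0.730 (pkn1b) to 1.35 (sgk2b), none as low as pdpk1b. In retention the list without pdpk1b had 44 introns with 20 reads. Of these 5 were at least 2-fold higher (11.4%) and 4 lower (9.09%), where 8.64% and 7.08% of all such introns were. At 4-fold 1 was higher (2.27%), that of pdpk1a, a share near the 1.72% of all introns. The genes of the TOR complexes and AKT targets had ratios of 0.792 (foxo3a) to 1.18 (mtor). Of their 29 introns with 20 reads, 0 were 4-fold higher or lower, where 1.72% and 0.737% of all such introns were.

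Over all pathway lists together, without the 3 kinases, 84 of 155 genes were measured. Of these 2 were at least 1.5-fold higher (2.38%) and 1 lower (1.19%), where 4.45% and 3.43% of all genes were, and the median log2 ratio was 0.02, against 0.05 for all genes. The lists held 222 introns with at least 20 reads, those of map2k4a included. Of these 26 were at least 2-fold higher (11.7%) and 14 lower (6.31%), where 8.64% and 7.08% of all introns were. At 4-fold, 8 in 7 genes were higher (3.60%), where 1.72% of all introns were. Those lower by 4-fold or more were 2, where 0.737% of all introns were. The median log2 retention ratio was 0.11, against 0.03 for all introns. The lists were chosen with earlier results of these data known. Some of their introns, that of pdpk1a among them, reached 20 reads only through the mutant library. These shares and medians are therefore descriptions.

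**Figure D5:**
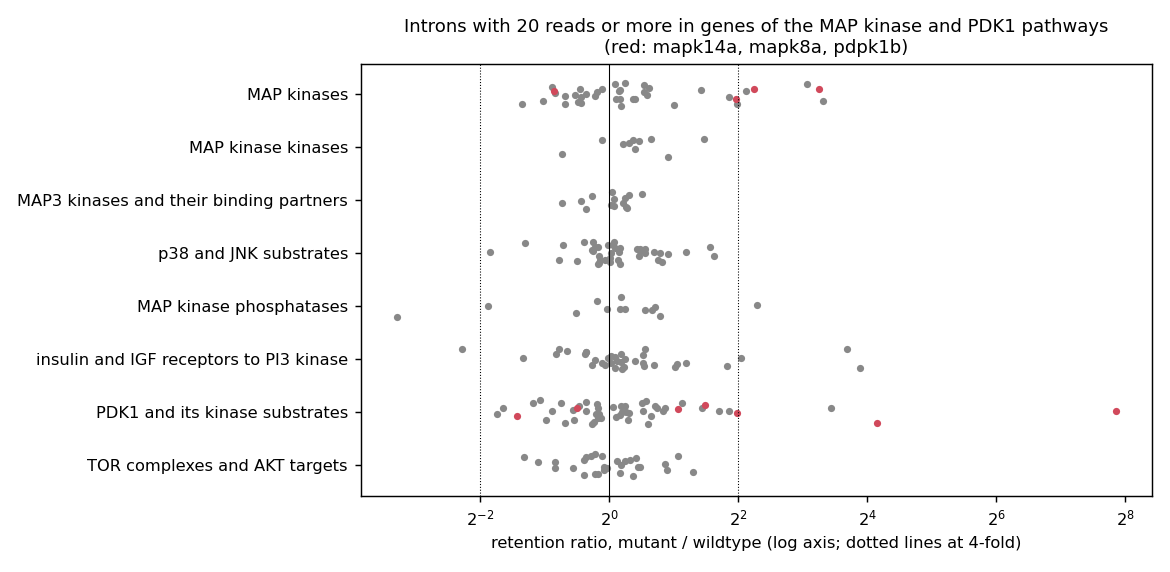
Retention ratio, mutant over wildtype (horizontal log axis), of each intron with at least 20 reads in the pathway lists, 1 point per intron, with introns of mapk14a, mapk8a and pdpk1b in red and dotted lines at 4-fold. Most introns lie between the dotted lines, and intron 4 of pdpk1b lies farthest right, at 233.

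The introns most like those of the 3 genes were sought by the distance of log2 retention coefficients over the 2 libraries, among 20212 introns of other genes with at least 20 reads. Nearest to intron 4 of mapk14a were introns of polr2k, an RNA polymerase subunit (6 and 52 reads, distance 0.11), of cul1a, a cullin (9 and 79 reads, 0.16), and of derl3 (4 and 24 reads, 0.19). Nearest to intron 4 of mapk8a were introns of b9d1 (8 and 33 reads, 0.16), sar1ab (5 and 18 reads, 0.16) and vash2 (61 and 227 reads, 0.17). Except in vash2, the neighbours of these introns of mapk14a and mapk8a held 4 to 9 wildtype reads. The order at such small distances is therefore not settled. For intron 4 of pdpk1b the nearest introns lay farther off. They were those of NM_199877 (1 and 49 reads, 0.93), tmem30c (1 and 58 reads, 0.98) and rnf175 (1 and 100 reads, 1.105). The wildtype coefficients of all of these and of intron 4 itself rest on 1 read, so these distances say little.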

How the data were processed

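Poly(A) RNA of 1 pool of larvae per genotype was sequenced on the SOLiD platform, per the labels. Per the file headers, the authors deposited read counts of each intron and its RPuKM, an RPKM taken over the unique intron length. Their fold change (ratio) and log2 columns, also deposited, were not used. The genome build is Zv9, per the submitters' processing notes, and the aligner is not given in the sources used here. The gene value has no unit in the header. It was found to be reads scaled by gene length and library size, recovered for 10223 of 10223 genes as the smallest whole solution, and the authors' retention coefficient equals RPuKM over it. For 1893 introns no gene value was given, and they were left out. Retention ratios had no pseudocount. Exact (Clopper-Pearson and Poisson) 95% intervals came from scipy 1.17.1 and were tested on simulated data. No test between libraries was made. Symbols came from a RefSeq table of GRCz12tu, used for names only, which matched 9797 genes. The members and gene lists were chosen with earlier results of these data known. Named were every listed intron of the 3 genes, list genes at least 1.5-fold higher or lower with at least 50 gene reads (else the extremes), and list introns at least 4-fold higher or lower with at least 20 reads. Alternatives were pseudocounts, scalings and read minimums. Some list genes that this rule names are counted but not reported by name here. No sequence is printed, as none was at hand.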

Additional observations from a re-analysis of the deposited data

How the results depend on the processing

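No paired analysis was possible because each genotype has 1 library, and no replicate could be left out. The 3 leading introns kept ratios above 2 under every alternative tried. Intron 4 of mapk14a went from 9.53 to 3.36 when scaled by the other listed introns of the gene, which hold the high intron 3. Intron 4 of mapk8a went from 3.92 to 8.47 with the library total. Intron 4 of pdpk1b went from 233 to 40.3 with a pseudocount of 5, since it has 1 wildtype read. Scaled by the other listed introns, whose sum holds the leading introns, ratios fell below 1 for introns 2 and 3 of mapk14a (0.241 and 0.865), introns 2, 5 and 6 of mapk8a (0.714, 0.894 and 0.699) and introns 1, 2, 6 and 9 of pdpk1b (0.757, 0.554, 0.336 and 0.763), and intron 3 of pdpk1b went from 3.96 to 1.098. With a pseudocount of 5, introns 1, 2, 5 and 6 of mapk8a were below 1 (0.765, 0.595, 0.729 and 0.765), and intron 10 of pdpk1b was at 1.15. With a pseudocount of 0.5, introns 2 and 6 of mapk8a were at 0.851 and 0.975. Scaled by the library total, introns 7 and 8 of mapk8a were at 1.65 and 1.19, and intron 6 of pdpk1b at 0.826. Pathway genes at least 1.5-fold higher numbered 1 in place of 2 with a minimum of 100 reads, and 1 with median ratio scaling, where 2 in place of 1 were lower. Pathway introns at least 2-fold higher, 4-fold higher and 2-fold lower numbered 26, 8 and 14. With no read minimum they numbered 105, 29 and 96, where 18.2%, 5.21% and 15.9% of all introns were. With a minimum of 50 they numbered 9, 5 and 1. Shares of the list introns under these alternatives were not computed, nor those of all introns at 50, so nothing is read from these counts. With a minimum of 50 reads, 1 of the 3 introns nearest to that of mapk8a was shared. Depth limits the 14 introns with under 20 reads.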
